A study of Homo sapiens with 12 samples.

Results

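Small nucleolar RNA host genes are transcribed into spliced RNAs whose introns carry small nucleolar RNAs (snoRNAs). They were taken as every gene in the deposited tables whose symbol is SNHG followed by a number, together with GAS5, DANCR, ZFAS1, EPB41L4A-AS1 and CYTOR. The rule found 33 of the 58288 listed genes, 28 of them numbered SNHG genes and 5 taken by name, and RefSeq lists all 33 as long noncoding RNA genes. The study depleted SHQ1, an assembly factor for H/ACA ribonucleoproteins, in HPB-ALL and KOPTK1, which are established human T-cell acute lymphoblastic leukemia lines. Its 12 RNA-seq libraries fall into 4 groups of 3: HPB-ALL Control, HPB-ALL shSHQ1, KOPTK1 Control and KOPTK1 shSHQ1. Control cells received a pLKO.1 lentivirus with an shRNA to GFP and shSHQ1 cells received the same vector with an shRNA to SHQ1, and all were kept for 48 h in 2 μg/mL puromycin before total RNA was depleted of rRNA. The shRNA sequences were not used here, and the results hold for these lines alone.

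The levels described here are the authors' averages over the 6 libraries of a line, control and knockdown libraries alike. The columns for single libraries carry numbers as headings, these numbers match no sample label, and the columns were left unused. No library was assigned to Control or shSHQ1, so no effect of SHQ1 depletion on a host gene is given. As a result of leaving these columns out, no value has an SD, no test was run and the depth of single libraries was not examined. SHQ1 itself was listed at 59.5 RPKM (CPM, counts scaled to a common library total, divided by exon length in kilobases) in HPB-ALL and 43.2 RPKM in KOPTK1, and each average mixes control and depleted cells, so neither checks the knockdown.

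Mature snoRNAs are trimmed out of excised introns and guide chemical modification of other RNAs. Box C/D snoRNAs direct 2′-O-methylation and box H/ACA snoRNAs direct pseudouridylation, mainly of ribosomal RNA, while small Cajal body RNAs (scaRNAs) act on the RNAs of the spliceosome. Some of these small RNAs, such as SNORD22 in SNHG1 and SNORA73A and SNORA73B in SNHG3, serve in the cleavage of ribosomal RNA precursors. SHQ1 binds dyskerin, the pseudouridine synthase of H/ACA particles, before it joins an H/ACA RNA. The exons of many host genes encode no conserved protein, and their spliced RNAs are known to be degraded by nonsense-mediated decay when translated. Several hosts begin with a 5′ terminal oligopyrimidine tract, a C followed by further C or T bases that is also found at the start of ribosomal protein mRNAs and ties their translation to growth signals.

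The start of each host was read from RefSeq promoters of build GRCh38.p14, which held an entry for 29 of the 33 hosts. SNHG6, SNHG15, SNHG25 and SNHG9 had no entry. A pyrimidine run of at least 4 bases that began with C at the annotated start was present in 9 of 29 hosts (31.0%), against 5.45% of the 35116 entries for all genes. Among promoters of the protein-coding snoRNA hosts chosen for comparison, it was present in 12 of 23 entries (52.2%), which belonged to 19 genes. The 9 windows are shown because they differ in how the tract is built, with 30 bases before the start in lower case, the run in capitals, and 20 bases from the start on.
SNHG12: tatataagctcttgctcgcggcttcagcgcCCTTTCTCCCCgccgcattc
SNHG18: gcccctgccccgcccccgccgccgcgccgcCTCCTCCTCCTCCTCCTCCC
SNHG19: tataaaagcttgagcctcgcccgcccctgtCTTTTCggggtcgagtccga
SNHG26: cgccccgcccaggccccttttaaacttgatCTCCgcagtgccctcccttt
SNHG32: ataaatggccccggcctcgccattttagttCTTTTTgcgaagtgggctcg
SNHG4: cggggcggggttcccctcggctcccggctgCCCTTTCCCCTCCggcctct
SNHG5: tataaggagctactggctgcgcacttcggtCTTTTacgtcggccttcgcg
SNHG7: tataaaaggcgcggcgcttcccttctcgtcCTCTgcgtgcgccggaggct
ZFAS1: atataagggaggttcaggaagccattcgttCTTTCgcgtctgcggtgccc

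In GRCh38.p14 the windows of hosts on the minus strand are chr1:28581854-28581903 for SNHG12, chr16:2155339-2155388 for SNHG19, chr6:85678714-85678763 for SNHG5 and chr9:136728165-136728214 for SNHG7. Those on the plus strand are chr5:9546170-9546219 for SNHG18, chr7:22854210-22854259 for SNHG26, chr6:31834886-31834935 for SNHG32, chr5:139274071-139274120 for SNHG4 and chr20:49278612-49278661 for ZFAS1. Each spans the proximal promoter and the annotated start of exon sequence. The run measured 11 bases in SNHG12, 13 in SNHG4, 6 in SNHG19 and SNHG32, 5 in SNHG5 and ZFAS1, and 4 in SNHG7 and SNHG26. In SNHG18 the run of 21 bases lay in a repeated triplet and passed the end of the window. The annotated start is itself uncertain: it lay within 10 bases of the start used in the deposited tables for 11 of the 29 hosts and over 100 bases from it for 8, among them ZFAS1 (464 bases), SNHG32 (308 bases) and SNHG12 (1110 bases). The run was searched on the transcribed strand alone. When it could begin anywhere within 5 bases of the annotated start, it was present in 17 of 29 hosts, against 34.1% of all entries.

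**Figure D1:**
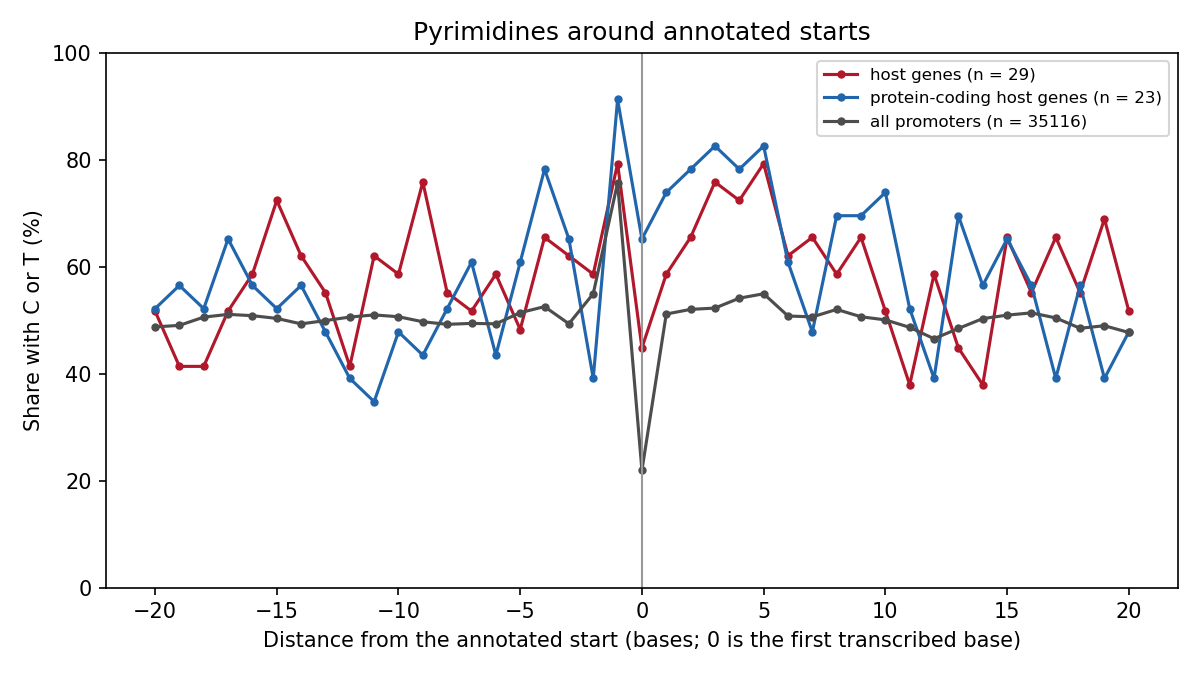
Share of promoters with C or T (percent, y axis) at each distance from the annotated start (bases, x axis) for 29 host genes, 23 promoter entries of protein-coding snoRNA hosts and all 35116 entries. The hosts and the protein-coding hosts lie above all entries in the first bases after the start, and 11 of the 29 hosts have C at the start itself.

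A C stood at the annotated start in 11 of 29 hosts (37.9%), in 65.2% of the protein-coding host entries and in 14.7% of all entries. The plot of pyrimidines around annotated starts shows that the hosts had more C or T than all entries over the bases just after the start. With 29 sequences the curve moves by several percent for each gene. A match to these letters describes the sequence and does not show that the tract is used.

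Host genes were among the well expressed noncoding genes of both lines. At least 1 RPKM was reached by 29 of the 33 hosts in HPB-ALL (87.9%) and by 29 in KOPTK1, whereas 39.9% of all listed genes reached that level in HPB-ALL and 42.3% in KOPTK1. At least 10 RPKM was reached by 18 hosts in HPB-ALL and by 20 in KOPTK1, against 14.5% and 14.8% of all genes. Among the 22430 genes at or above 1 RPKM in both tables, the median level was 6.49 RPKM in HPB-ALL and 6.87 RPKM in KOPTK1. The corresponding medians over the 29 hosts were 17.2 RPKM and 18.5 RPKM. All 33 hosts together took 0.151% of the summed CPM in HPB-ALL and 0.157% in KOPTK1. The tables of the lines were normalized separately, so their levels are set side by side without a test, and fewer cells with a transcript cannot be told apart from less RNA per cell in such bulk samples.

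**Figure D2:**
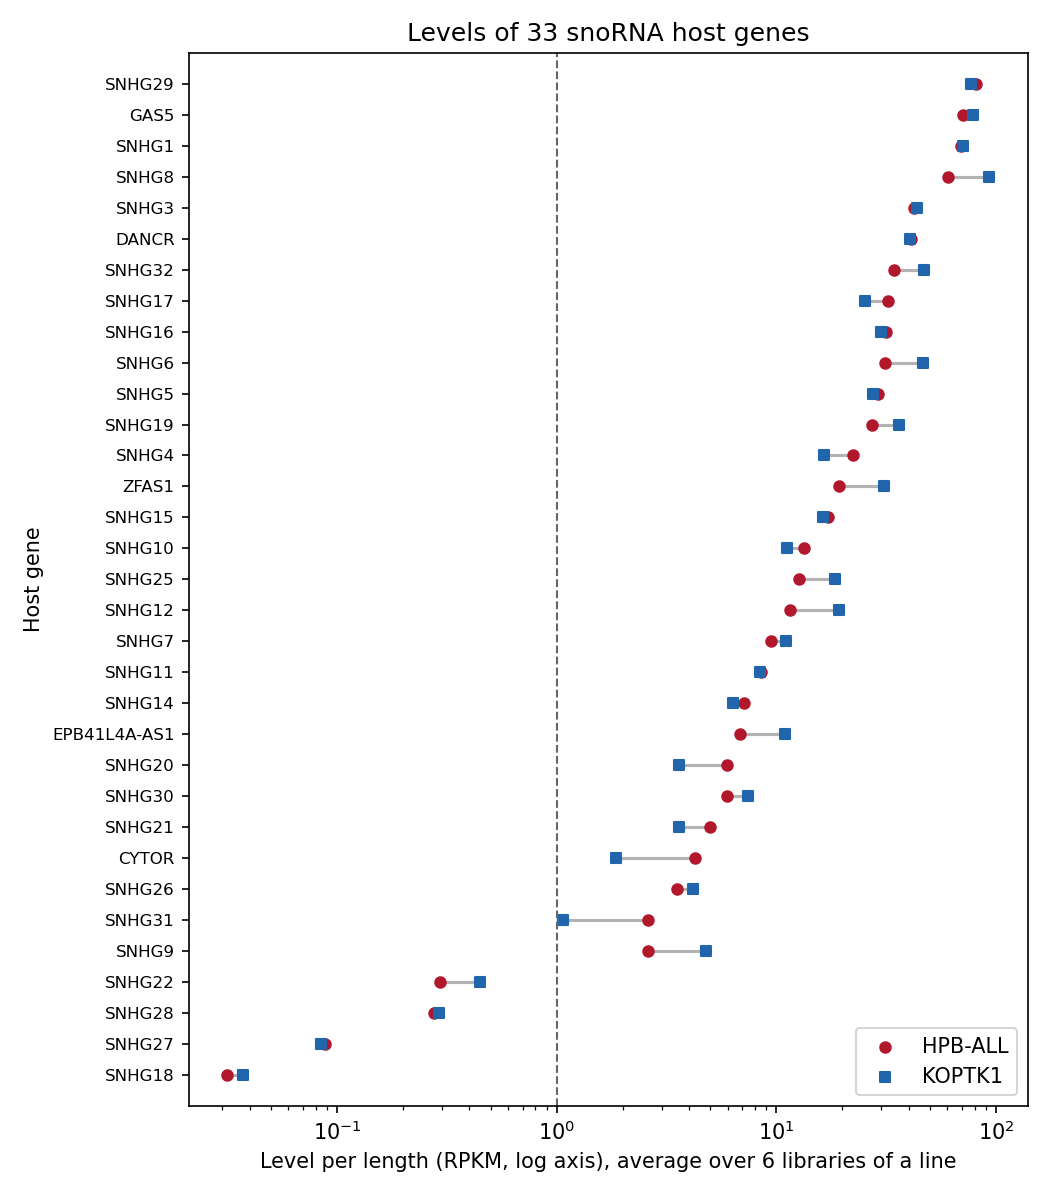
Level of each of the 33 host genes (y axis) in RPKM on a log axis (x axis), as the average over the 6 libraries of HPB-ALL (circles) and of KOPTK1 (squares). The dashed line marks 1 RPKM, and SNHG22, SNHG28, SNHG27 and SNHG18 lie below it in both lines.

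The most abundant host in HPB-ALL was SNHG29, on chromosome 17, which encloses SNORD49A, SNORD49B and SNORD65. Its level was 80.7 RPKM in HPB-ALL and 76.9 RPKM in KOPTK1. GAS5, on chromosome 1, was named for its accumulation in growth-arrested cells and its RNA can bind the glucocorticoid receptor. GAS5 stood at 70.8 RPKM in HPB-ALL and 78.4 RPKM in KOPTK1. SNHG1, on chromosome 11, is the classic host of box C/D snoRNAs from SNORD22 to SNORD31. SNHG1 stood at 69.4 RPKM in HPB-ALL and 71.0 RPKM in KOPTK1. SNHG8, on chromosome 4 and host of SNORA24, was the highest in KOPTK1 with 93.3 RPKM and had 60.3 RPKM in HPB-ALL. The 5 highest hosts of each line held 45.6% of the summed RPKM of all hosts in HPB-ALL and 46.2% in KOPTK1, so the signal was spread over many genes and not carried by a single one.

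A middle tier lay between about 10 and 50 RPKM. SNHG3, host of the H/ACA RNAs SNORA73A and SNORA73B, had 42.1 RPKM in HPB-ALL and 43.5 RPKM in KOPTK1. DANCR, known for holding back differentiation of progenitor cells, had 41.0 RPKM and 40.8 RPKM. In both genes the lines differed by less than 0.1 on the log2 scale. SNHG32, on chromosome 6, had 34.5 RPKM in HPB-ALL and 47.0 RPKM in KOPTK1. SNHG17 and SNHG11 are neighbours on chromosome 20 that carry most of the SNORA71 family. SNHG17 had 32.3 RPKM and 25.4 RPKM, and SNHG11 had 8.55 RPKM and 8.39 RPKM. SNHG16 (31.5 RPKM and 29.8 RPKM), SNHG6 (31.2 RPKM and 46.4 RPKM), SNHG5 (29.0 RPKM and 27.6 RPKM) and SNHG19 (27.3 RPKM and 36.2 RPKM) were C/D hosts of the same tier, with the HPB-ALL level given before that of KOPTK1. SNHG15, host of SNORA9, had 17.2 RPKM and 16.4 RPKM. SNHG4, which carries SNORA74A and SNORA74D, had 22.4 RPKM in HPB-ALL and 16.4 RPKM in KOPTK1. SNHG25, a gene of 507 bases, had 12.7 RPKM and 18.5 RPKM.

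The lower tier held hosts between 1 and 10 RPKM in HPB-ALL. SNHG7, SNHG11, SNHG14, EPB41L4A-AS1, SNHG20, SNHG30, SNHG21, CYTOR, SNHG26, SNHG31 and SNHG9 fell there. SNHG7, the host of SNORA17A and SNORA17B, had 9.43 RPKM in HPB-ALL and 11.0 RPKM in KOPTK1. SNHG30, which carries SNORD7, had 5.93 RPKM and 7.40 RPKM. SNHG21, which carries SCARNA15, had 4.99 RPKM and 3.61 RPKM, and SNHG26 had 3.52 RPKM and 4.16 RPKM. SNHG14, on chromosome 15, spans 439906 bases over the imprinted Prader-Willi region and its neighbour UBE3A, and it had 7.10 RPKM in HPB-ALL and 6.34 RPKM in KOPTK1 over 35721 exon bases. It had the longest exon length of the 33 hosts, and a per-length level averages over that whole set of exons. SNHG22 had 0.295 RPKM in HPB-ALL and 0.449 RPKM in KOPTK1. SNHG28 had 0.277 RPKM and 0.292 RPKM. SNHG27 and SNHG18 lay under 0.1 RPKM in both lines, near the lowest value of the averages, and SNHG18 in KOPTK1 had exactly that value.

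Compared with other noncoding genes, the hosts ranked high. Of 5111 listed genes that RefSeq calls long noncoding RNA genes, 6 of the 20 with the highest level in HPB-ALL were hosts (SNHG29, GAS5, SNHG1, SNHG8, SNHG3 and DANCR). In KOPTK1 6 of the 20 highest were also hosts, with SNHG32 and SNHG6 in place of SNHG3 and DANCR. MALAT1, a nuclear-retained RNA, led both rankings with 669 RPKM in HPB-ALL and 1014 RPKM in KOPTK1. Other high entries, such as TUBA1B-AS1 and HNRNPK-AS1, are named as antisense to an abundant mRNA, and reads of such pairs cannot be told apart without strand. The order of the hosts was much the same in both tables, with Spearman's rho of 0.952 across the 29 hosts at or above 1 RPKM. Genes are not independent replicates, and the value is given as a description.

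Between the lines, most hosts were at like levels. A host was called higher in a line when log2(RPKM + 0.1) differed by at least 1.5-fold, among genes at or above 1 RPKM in both tables. By this rule 3 of 29 hosts were higher in HPB-ALL (10.3%), against 8.12% of all 22430 genes. In KOPTK1, 5 of 29 hosts were higher (17.2%), against 11.5% of all genes. These shares are near those of all genes, and nothing particular to the hosts is read from them. The median log2 difference, HPB-ALL minus KOPTK1, was -0.03 over the hosts and -0.02 over all genes. Among the 29 hosts, 8 differed by less than 0.1 on the log2 scale.

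**Figure D3:**
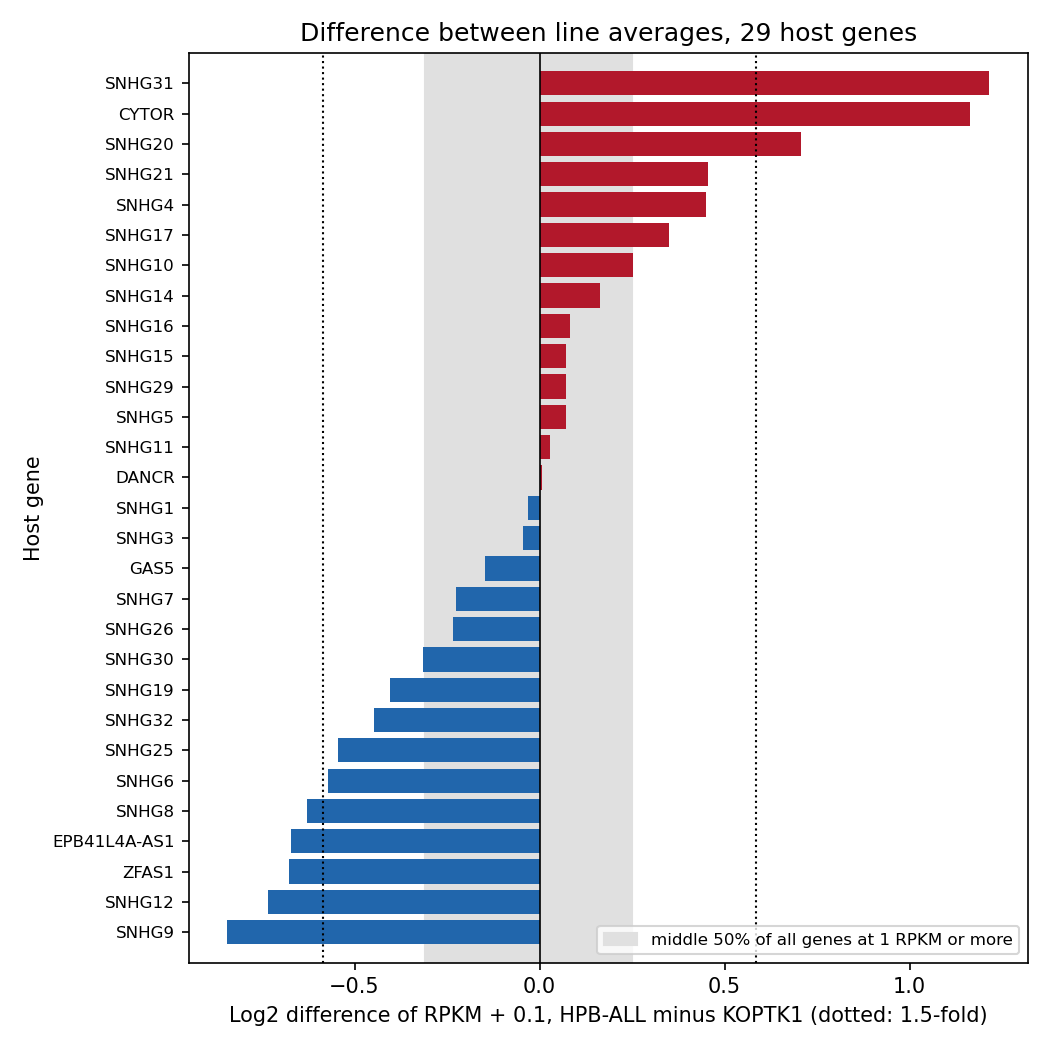
Log2 difference of RPKM + 0.1 between line averages (HPB-ALL minus KOPTK1, x axis) for the 29 host genes at or above 1 RPKM in both tables (y axis). Dotted lines mark 1.5-fold, and the grey band spans the quartiles of all 22430 genes, from -0.31 to 0.25. SNHG31, CYTOR and SNHG20 lie beyond the dotted line on the HPB-ALL side and 5 hosts beyond that on the KOPTK1 side.

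The 3 hosts with more RNA in HPB-ALL were of low abundance. Ratios between the lines are of RPKM + 0.1, which makes them smaller than the ratio of the levels themselves for low genes. SNHG31, which spans 153046 bases on chromosome 2 and holds SNORA70I, had 2.61 RPKM in HPB-ALL and 1.07 RPKM in KOPTK1, a ratio of 2.32. CYTOR, a cytoplasmic RNA with reported roles in actin regulation, had 4.27 RPKM and 1.85 RPKM, a ratio of 2.24. CYTOR has a near-identical copy, MIR4435-2HG, also on chromosome 2, so the split of reads between the copies is uncertain. SNHG20, host of SCARNA16, had 5.97 RPKM in HPB-ALL and 3.62 RPKM in KOPTK1, a ratio of 1.63. Of the exon bases of SNHG20, 19.8% lie in exons of SEC14L1 on the same strand.

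The 5 hosts with more RNA in KOPTK1 covered a wider range of abundance. SNHG9, a single-exon gene that contains SNORA78, had 2.61 RPKM in HPB-ALL and 4.77 RPKM in KOPTK1, a ratio of 1.79 in favour of KOPTK1. SNHG12, host of 4 snoRNAs, had 11.5 RPKM and 19.2 RPKM, a ratio of 1.66. ZFAS1, which carries the SNORD12 group and is antisense to ZNFX1, had 19.3 RPKM and 31.0 RPKM, a log2 difference of -0.68. EPB41L4A-AS1, host of SNORA13, had 6.81 RPKM and 10.9 RPKM, a ratio of 1.59. SNHG8 followed with a ratio of 1.55. Just short of 1.5-fold on the same side were SNHG6, with a log2 difference of -0.57, and SNHG25, with -0.55. When levels were rescaled to the same sum in both tables, SNHG8 moved to -0.57 and was no longer called.

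Reads that fall in exons shared with another gene limit some of these values, since the TruSeq RNA kit (version 2) used for the libraries does not mark strand. Of the 33 hosts, 12 had over 10% of their exon bases in exons of other listed genes and 14 had none, with the snoRNA genes inside the host left out of the count. With snoRNA genes included the numbers were 15 and 8, as SNHG25 (48.6%), SNHG9 (23.0%) and SNHG3 (12.1%) joined. The share was 65.0% for SNHG21, 55.9% for EPB41L4A-AS1 against EPB41L4A on the opposite strand, 49.7% for SNHG28, 45.3% for SNHG16 and 37.5% for SNHG6 against MCMDC2. It was 28.2% for ZFAS1, 27.2% for SNHG4 against MATR3 on the same strand, and 25.2% for SNHG7. Without the 12 hosts, 2 of the 19 that remained at or above 1 RPKM in both tables were higher in HPB-ALL (CYTOR and SNHG31) and 3 of 19 in KOPTK1 (SNHG12, SNHG8 and SNHG9), compared with 3 and 5 of 29. Without the 15 hosts, 2 of 16 were higher in HPB-ALL and 2 of 16 in KOPTK1, as SNHG9 dropped out. Of all genes, 8.12% were higher in HPB-ALL and 11.5% in KOPTK1, and nothing particular to the hosts is read from these counts.

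RefSeq places 151 snoRNA and scaRNA genes wholly inside the 33 hosts, and 83 of them lie in SNHG14, which carries the SNORD115 and SNORD116 clusters. Outside SNHG14 there were 68, of which 38 were C/D, 23 H/ACA, 4 scaRNA and 3 without a class in their symbol. CYTOR and SNHG27 held none. Sorted by the genes with a class in their symbol, 12 hosts held only C/D, 11 only H/ACA and 4 only a scaRNA. GAS5, SNHG12 and SNHG25 were mixed. SNHG1 and SNHG17 each held 1 further gene without a class, and the single gene in SNHG28 had none. GAS5 carried the most after SNHG14, with 11, of which 10 were C/D and SNORA103 was H/ACA. SNHG1 carried 9, of which 8 were C/D.

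SHQ1 serves RNAs of the H/ACA type, which include some scaRNAs. The 11 hosts sorted as H/ACA were all at or above 1 RPKM in both lines, with medians of 17.2 RPKM in HPB-ALL and 16.4 RPKM in KOPTK1. Of the 12 hosts sorted as C/D, 11 were at that level, with medians of 29.0 RPKM and 31.0 RPKM. Between the lines, the median log2 difference was 0.01 for H/ACA hosts and -0.23 for C/D hosts. Of the 4 hosts of a scaRNA, 3 were at that level, with medians of 5.97 RPKM and 3.62 RPKM and a median log2 difference of 0.46. Called by 1.5-fold were SNHG31 in HPB-ALL and SNHG9, EPB41L4A-AS1 and SNHG8 in KOPTK1 among H/ACA hosts, ZFAS1 in KOPTK1 among C/D hosts, and SNHG20 in HPB-ALL among scaRNA hosts. Of all genes, 8.12% were called higher in HPB-ALL and 11.5% in KOPTK1. Each class holds few hosts, and no difference between classes is read from these calls. The levels are averages over control and depleted cells, and they say nothing on how any class responds to loss of SHQ1.

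Of the 68 snoRNA genes outside SNHG14, 53 matched a gene of their own in the tables and 15 did not. In the case of GAS5, no separate entry was matched for any of its 11. Of the 53, 39 shared no base with the exons recorded for their host and 11 lay wholly inside them. Levels could be compared per length for 51 pairs of a snoRNA gene and its host outside SNHG14, from 26 hosts, with both at or above 1 RPKM in both lines. The reads are longer than many of these genes and the libraries were not selected for small RNA. An entry therefore counts precursor, host intron and mature RNA alike and is not a measure of mature snoRNA. A read that only partly overlaps a short gene may be counted in full, so division by length can raise short genes relative to their hosts. C/D genes are mostly shorter than H/ACA genes, which limits the comparison of the classes as well.

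Outside SNHG14, the median snoRNA gene stood at 73.3% of its host in HPB-ALL and 76.7% in KOPTK1. H/ACA genes (22 pairs) had medians of 77.3% and 81.3%, and C/D genes (24 pairs) had medians of 71.2% and 72.2%. The snoRNA gene was above its host in 17 pairs in HPB-ALL, 16 in KOPTK1 and 15 in both. SNHG14 added 34 C/D pairs with medians of 116% and 120%, above the host in 18 pairs in HPB-ALL, 20 in KOPTK1 and 17 in both. With them the C/D medians rose to 92.0% and 98.6% over 58 pairs, so the distance between the classes depends on this 1 host. Most of the 34 are SNORD116 copies of like sequence, among which reads are hard to assign.

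**Figure D4:**
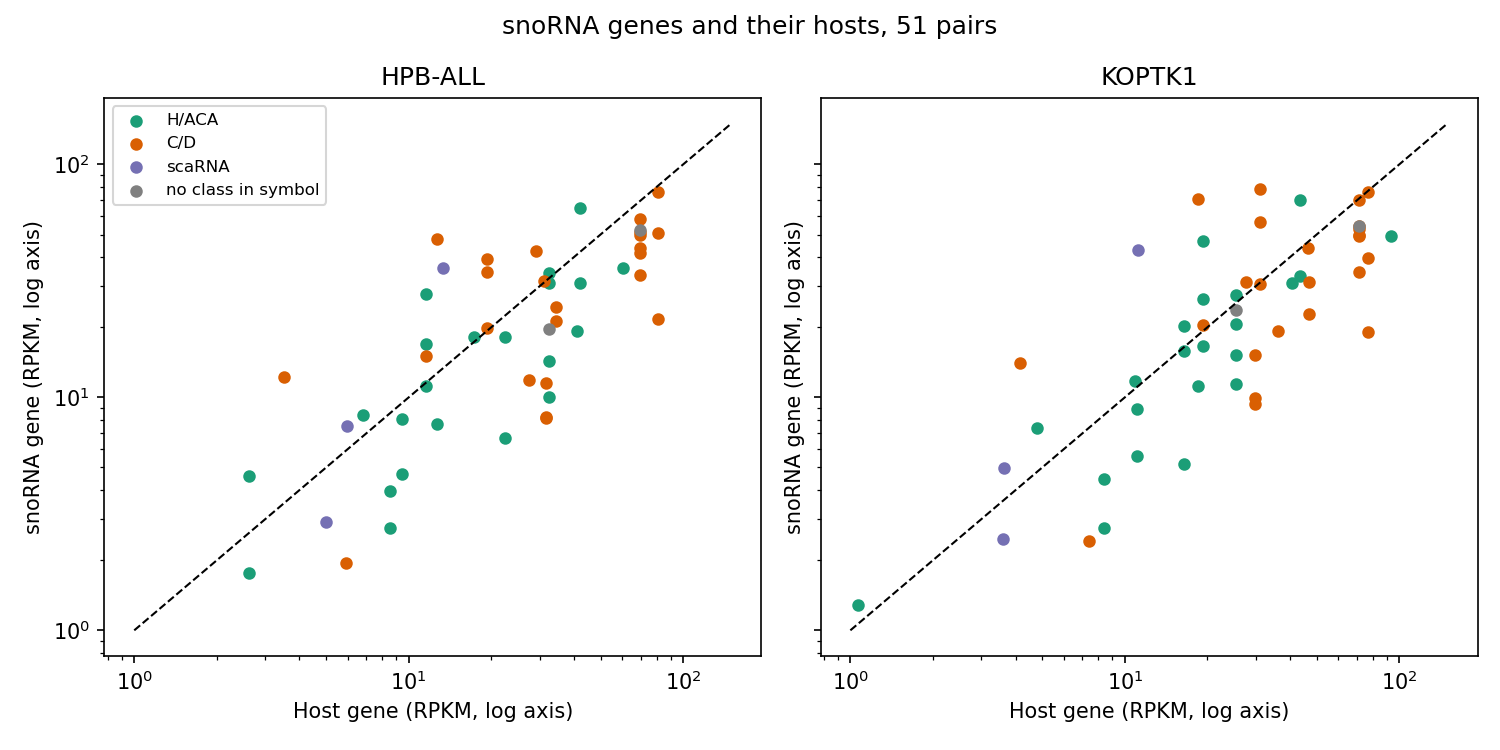
Level of each snoRNA gene (RPKM, log y axis) against the level of its host (RPKM, log x axis) for 51 pairs, as averages over the libraries of HPB-ALL (left) and KOPTK1 (right), colored by class. The dashed line marks equal levels, and 17 points lie above it in HPB-ALL and 16 in KOPTK1.

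In 5 pairs outside SNHG14 the snoRNA gene reached at least 2 times its host in both lines: SCARNA13, SNORD104, SNORD93, SNORD12C and SNORA61. In SNHG14, 8 more did, led by SNORD108 at 561% and 485% of the host and SNORD116-18 at 478% and 449%. SNORD104, SNORD93 and SNORD12C are only 70, 74 and 89 bases long, so division by length can raise their shares. SNORA61 has 130 bases and SCARNA13 has 275. Sequences are shown for those of the 5 with an entry under the same gene identifier and length among the GENCODE transcripts, together with SNORA73B, the H/ACA gene with the highest level among those with a sequence. Capitals mark the boxes of each gene's own class found by search on the given strand: in C/D genes TGATGA within 20 bases of the 5′ end (box C) and CTGA within 20 bases of the 3′ end (box D), and in H/ACA genes and the scaRNA the last ACA, with at most 5 bases after it.
SCARNA13: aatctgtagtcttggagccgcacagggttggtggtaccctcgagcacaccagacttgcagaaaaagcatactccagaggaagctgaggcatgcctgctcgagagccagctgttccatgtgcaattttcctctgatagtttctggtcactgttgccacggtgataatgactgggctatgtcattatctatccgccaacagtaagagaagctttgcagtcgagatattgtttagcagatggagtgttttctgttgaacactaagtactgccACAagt
SNORD104: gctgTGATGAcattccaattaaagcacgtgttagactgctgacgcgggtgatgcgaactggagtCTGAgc
SNORD93: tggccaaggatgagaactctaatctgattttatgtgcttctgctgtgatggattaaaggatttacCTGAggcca
SNORD12C: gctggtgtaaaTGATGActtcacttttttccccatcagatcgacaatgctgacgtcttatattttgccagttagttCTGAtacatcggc
SNORA73B: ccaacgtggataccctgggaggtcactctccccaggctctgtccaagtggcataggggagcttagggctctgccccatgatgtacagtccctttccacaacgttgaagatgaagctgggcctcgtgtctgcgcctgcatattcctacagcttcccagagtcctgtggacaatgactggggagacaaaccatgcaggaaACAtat

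The tables place these genes, in build hg38, at chr14:95533355-95533629 on the minus strand for SCARNA13 and on the plus strand at chr17:64146083-64146152 for SNORD104, chr7:22856613-22856686 for SNORD93, chr20:49278940-49279028 for SNORD12C and chr1:28508559-28508762 for SNORA73B. Each of the 5 lies in an intron of its host, with no base in the recorded exons. Boxes were counted for hosted genes outside SNHG14 that had a sequence of the listed length. Both box C and box D as spelled here were present in 10 of 12 C/D genes, against 52.1% of the 390 C/D sequences in the annotation. The ACA box was present in 9 of 11 H/ACA genes, against 72.4% of 399. Genes in SNHG14 were not taken out of the annotation, so the C/D shares are not of like sets. SNORD93 lacked an exact TGATGA in that stretch.

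SCARNA13 showed 36.0 RPKM in HPB-ALL and 42.9 RPKM in KOPTK1, whereas its host SNHG10 had 13.3 RPKM and 11.2 RPKM. SNORD104 showed 47.8 RPKM and 70.7 RPKM, 377% and 381% of SNHG25. SNORD93 stood at 348% of SNHG26 in HPB-ALL and 339% in KOPTK1. SCARNA13 stood at 270% of its host in HPB-ALL and 384% in KOPTK1. As SCARNA13 has the ACA box near its 3′ end and the averages mix control and SHQ1-depleted cells, these shares cannot be read as those of control cells. SNORD12C, in ZFAS1, had 39.2 RPKM in HPB-ALL and 78.1 RPKM in KOPTK1, 203% and 252% of its host. SNORA61, in SNHG12, had 27.7 RPKM and 46.7 RPKM. SNORA73B had 65.2 RPKM and 70.0 RPKM, 155% and 161% of SNHG3, while SNORA73A in the same host stood at 73.3% and 76.7%.

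Genes within a host did not share a single level. In SNHG1 the 7 matched genes ranged in HPB-ALL from SNORD30 at 33.5 RPKM to SNORD26 at 58.3 RPKM, and all 7 were below the host in both lines. In SNHG29, SNORD49A and SNORD65, with no base in recorded host exons, stood at 62.9% and 27.0% of the host in HPB-ALL, and SNORD49B, wholly inside them, at 94.4%. In SNHG17, SNORA71C had 34.2 RPKM and SNORA71D had 10.1 RPKM in HPB-ALL. The SNORA71 genes resemble each other in sequence, so the assignment of reads among them is uncertain. In SNHG16 the highest in HPB-ALL was SNORD1A at 36.5% of the host, and SNORD1B and SNORD1C stood at 26.0% and 25.9%, SNORD1C being the only 1 of the 3 inside recorded exons.

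In the comparison of the lines (HPB-ALL minus KOPTK1), most of the 51 compared snoRNA genes had a negative difference. Where the host was negative, nearly all pairs shared its sign. Among pairs with a positive host, the signs were split almost evenly, with slightly more opposite than the same. Some of the opposite ones were very small, such as -0.003 for SNORA71E in SNHG11 and -0.005 for SNORD49B in SNHG29. In 38 of 51 pairs the log2 difference had the same sign for the snoRNA gene and the host, and Spearman's rho across the pairs was 0.751. Pairs within a host share their host value and can share reads, and the value describes these averages alone. In the 5 hosts called higher in KOPTK1 every compared snoRNA gene also had a negative difference, as did nearly all in any host with a negative difference. In ZFAS1 (log2 difference -0.68), SNORD12C, SNORD12B and SNORD12 had -0.99, -0.71 and -0.62. In SNHG12 (-0.73), SNORA61, SNORA44, SNORA16A and SNORD99 had -0.75, -0.65, -0.58 and -0.44. In SNHG25 (-0.55), SNORD104 and SNORA50C had -0.56 and -0.53. SNORA78, SNORA13 and SNORA24 had -0.67, -0.48 and -0.45 in SNHG9 (-0.84), EPB41L4A-AS1 (-0.67) and SNHG8 (-0.63). SNHG31 (1.22) and its SNORA70I (0.43) differed more in size, at levels near the minimum. In 13 pairs the signs were opposite. SCARNA13 had -0.25 in SNHG10 (0.25) and SNORA26 had -0.68 in DANCR (0.01). SNORD1A, SNORD1C and SNORD1B had -0.40, -0.28 and -0.20 in SNHG16 (0.08), and LOC124904974, SNORA71D and SNORA71B had -0.27, -0.18 and -0.10 in SNHG17 (0.35). The other 5 were in SNHG1, SNHG11, SNHG15 and SNHG29.

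For comparison, 22 protein-coding hosts of snoRNAs were described in the same way, among them genes for ribosomal proteins, translation factors and nucleolar proteins. All 22 were at or above 1 RPKM in both lines, with medians of 162 RPKM in HPB-ALL and 156 RPKM in KOPTK1, above the most abundant noncoding host. Of the 22, 0 passed 1.5-fold between the lines on levels as listed, against 8.12% of all genes higher in HPB-ALL and 11.5% in KOPTK1, and their median log2 difference was -0.02. The gap was widest for EIF4A1, a translation initiation helicase, with 106 RPKM in HPB-ALL and 72.3 RPKM in KOPTK1. DKC1, which encodes dyskerin and hosts H/ACA snoRNAs itself, had 46.6 RPKM and 38.6 RPKM. With levels rescaled to the same sum in both tables, 1 of the 22 passed 1.5-fold, EIF4A1.

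The T-cell identity of the lines was checked with marker genes. All 10 T-lineage markers were at or above 1 RPKM in both lines, with summed levels of 1181 RPKM in HPB-ALL and 1361 RPKM in KOPTK1, and the most abundant was CD3D with 295 RPKM and 301 RPKM. TCF7, CD2 and CD247 were at least 1.5-fold higher in KOPTK1. Of 4 B-cell markers, summing to 43.8 RPKM and 16.5 RPKM, CD79A made up nearly all, with 43.3 RPKM in HPB-ALL and 16.1 RPKM in KOPTK1. PAX5 and MS4A1, which define B cells, were under 0.1 RPKM in both lines. The 4 myeloid markers were all under 1 RPKM, summing to 0.821 RPKM and 1.27 RPKM, with CD14 highest in HPB-ALL and CSF1R in KOPTK1. Of 3 erythroid markers HBA1 was highest, with 2.12 RPKM and 1.83 RPKM, and of 4 epithelial or fibroblast markers COL1A1 was highest, with 1.40 RPKM and 1.15 RPKM. CD79A moved in the same direction between the lines as SNHG31, CYTOR and SNHG20, and its part in those differences was not tested.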

How the data were processed

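Total RNA of the 12 libraries was rRNA-depleted and sequenced by the authors. Their processing notes name Trimmomatic 0.36, STAR 2.5.4b, Picard 2.18.7 and featureCounts 1.6.2 with build hg38. The authors deposited, for each line, an average log2 CPM over its 6 libraries, the exon length of each gene and their own comparison (log fold change, test statistic, p-value and adjusted p-value). Columns for single libraries, headed by numbers, were also given. The 12 numbered columns match no sample label and were not used, nor was the authors' comparison, so the planned tests of SHQ1 knockdown, by limma or a count model, were not run. Depth per library was therefore not examined.

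The average log2 CPM was put back on the linear scale and divided by exon length in kilobases, which gave RPKM. The averages have a lowest value, -4.36 in HPB-ALL (13164 genes) and -3.90 in KOPTK1 (12035 genes), which lifts genes with few reads. Differences used log2(RPKM + 0.1), a minimum of 1 RPKM in both tables and a threshold of 1.5-fold. The calling step was tested on simulated data. Python 3.11.15, pandas 2.3.3, NumPy 2.4.6 and Matplotlib 3.10.9 were used.

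Of the gene identifiers, 55859 (95.8%) matched a symbol. RefSeq GRCh38.p14 loci overlapped those of the tables for 98.9% of 39051 genes and for all 33 hosts, and RefSeq snoRNA genes were placed in hosts by position. A gene was matched to a RefSeq snoRNA when each covered at least 50% of the other on the host's strand, and a snoRNA whose match lay on the opposite strand was left out. RefSeq's table gives no strand, so for snoRNA genes without a match the strand is not given in the sources used here. snoRNA sequences were taken by gene identifier from the GENCODE 44 transcripts, without coordinates. The named genes are every host, snoRNA genes inside hosts, SHQ1, 22 protein-coding hosts and the cell type markers, of which 1 is not reported here. MALAT1, TUBA1B-AS1, HNRNPK-AS1 and genes that overlap a host were named after their values were seen. The members and lists were chosen with earlier results of these data known. Alternatives covered the minimum, the pseudocount, centring, the snoRNA overlap rule and the start motif.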

Additional observations from a re-analysis of the deposited data

How the results depend on the processing

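No paired analysis was possible because the columns of single libraries bear numbers that no sample label contains. For the same reason the other settings foreseen for SHQ1 knockdown (another pseudocount, another count model, no filter, the replicate number as a block, leaving out each replicate) were not run. Hosts detected numbered 31 in each line at a minimum of 0.1 RPKM, against 29 at 1 RPKM. At 10 RPKM they numbered 18 in HPB-ALL and 20 in KOPTK1. The lower minimum of 0.1 RPKM was also met by most of the full gene list, 74.9% (HPB-ALL) and 83.3% (KOPTK1). The hosts therefore stood out less there than at 1 RPKM, where these shares were 39.9% and 42.3%. Centring on the median gene and pseudocounts of 0.01 and 1 left the same 3 and 5 hosts called between the lines. Of all genes, 8.59% were higher in HPB-ALL and 11.0% in KOPTK1 with centring. These shares were 8.42% and 11.9% at a pseudocount of 0.01. At a pseudocount of 1 they fell to 5.83% and 8.07%, while the hosts stayed at 10.3% and 17.2%. With so few hosts, nothing particular to them is read from this. The remaining settings for levels were chosen after seeing the data. Subtracting the lowest listed CPM kept all 8 calls, with 8.70% of all genes higher in HPB-ALL and 11.2% in KOPTK1. Dropping the minimum also kept all 8, with 5.24% and 13.3% of all genes. Over all genes, the share of calls that were higher in HPB-ALL then moved from 41.4% to 28.2%. Rescaling to the same sum kept 7 of 8, without SNHG8, and shifted the median of all genes from -0.02 to 0.04. Without hosts that share over 10% of exon bases with other genes, snoRNA genes inside the host not counted, 2 were higher in HPB-ALL and 3 in KOPTK1. With snoRNA genes counted, 2 were higher in HPB-ALL and 2 in KOPTK1, in each case by construction from fewer hosts (19 and 16). The shares of all genes stayed at 8.12% and 11.5%. Adding SNHG14 raised the pairs of snoRNA gene and host from 51 to 85 and those with the snoRNA gene above its host in both lines from 15 to 32. Any overlap in place of full containment gave the same 151 snoRNA genes. The start motif was present in 9 hosts under the main rule, in 7 with a run of at least 5 bases, and in 17 when it could begin within 5 bases of the start, a rule that more positions can meet. A run of at least 5 bases was present in 24.1% of hosts with a promoter entry, 47.8% of protein-coding host entries and 4.07% of all entries. SNHG27 and SNHG18 lie near the lowest value listed, and SNHG18 at it in KOPTK1, which limits what their levels can show.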
